A study of Mus musculus with 8 samples.

Results

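The 9 genes described here belong to insulin signalling and glucose uptake in fat cells. They are the receptor Insr, the adaptors Irs1 and Irs2, the regulatory subunit Pik3r1 and the kinase Akt2. The others are the transcription factor Foxo1, the Rab regulator Tbc1d4, and the glucose transporters Slc2a4 and Slc2a1. All 9 were taken by exact gene symbol from the platform annotation, which gave 23 probe sets for them. In all, 44105 probe sets and 18193 genes were tested. For each gene the probe set with the highest mean level stands first, and its other probe sets are given beside it.

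The RNA came from gonadal white adipose tissue of mice of a Swiss background, aged 10 weeks, kept under normal conditions without treatment, with 1 Affymetrix array per sample. The 4 control samples, labelled wild type, carry the replicate numbers 1, 2, 3 and 4. The 4 knockout samples, labelled aP2-Pex5 -/-, carry the numbers 6, 8, 9 and 10, and per the design text their adipose tissue has no working peroxisomes. Pex5 is the receptor that brings enzymes into the peroxisome, and aP2 is the promoter of the fatty acid binding protein gene Fabp4, which is active in adipocytes and is also known to be active in some other cells, such as macrophages. The labels used here state neither the sex of the mice nor whether each sample is its own animal, so a p-value covers the spread between these 8 samples, which may be technical.

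Insulin binds its receptor, which phosphorylates the IRS adaptors. These recruit phosphoinositide 3-kinase, whose lipid product activates the kinase AKT2. AKT2 phosphorylates the Rab regulator AS160 (Tbc1d4), which lets vesicles with the transporter GLUT4 (Slc2a4) reach the cell surface, and it also keeps FOXO1 out of the nucleus. GLUT1 (Slc2a1) carries glucose without needing insulin. Much of this pathway works through phosphorylation and movement of proteins, which transcript arrays do not measure.

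Values are log2 expression as deposited, so a difference of 1 is a doubling. A value of one probe set cannot be set against that of another, because each binds its target differently. The median value per array lay between 6.44 and 6.52. Pex5 itself averaged 9.38 ± 0.24 over the controls and 9.36 ± 0.10 over the knockouts (SD, n = 4); the sources do not say which exons were deleted or where the probes lie, so this does not check the labels. The tissue had its adipocyte markers, 9 of 12 of which had a usable probe set, at a mean level per array of 13.40 to 13.77 in control and 13.62 to 13.79 in knockout. Markers of macrophages, cells in which aP2 can be active, were at 9.91 to 10.56 in control and 9.60 to 10.16 in knockout. Of 10, 9 were lower, where 53.3% of all genes were. An unadjusted limma p under 0.05 was found for 2 of the 10, against 2.56% of all genes, and none passed the limma test over all genes. Markers of one cell type are not independent of each other. Markers of other organs differed between single arrays: the mean of 6 of 7 liver markers was 11.21 in control 1 against 5.97 to 9.01 in the others, and that of 4 of 7 epididymis markers was 9.01 in knockout 8 against 4.79 to 6.57. A measure of RNA quality, the 3′ minus the 5′ control probe set of pyruvate carboxylase, was 3.97 in control 1, 4.83 in control 4 and 4.65 in knockout 9, and between 1.59 and 2.10 in the other 5 arrays. In whole tissue, fewer cells of a type and less RNA per cell cannot be told apart.

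None of the 9 genes passed the test between knockout and control. The test was limma with Benjamini-Hochberg adjustment over all 18193 genes at 0.05, where 0 genes passed (0% called) and the adjusted p was 0.999 for each of the 9. At an unadjusted p under 0.05 stood 1 of the 9, Tbc1d4, against 2.56% of all genes in either direction and 1.38% lower in knockout. The groups overlapped in all 9 genes, where 1.70% of all genes were fully separated. Of the 9, 5 were lower and 4 higher in knockout, with a median difference of -0.03 against -0.01 over all genes.

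**Figure D1:**
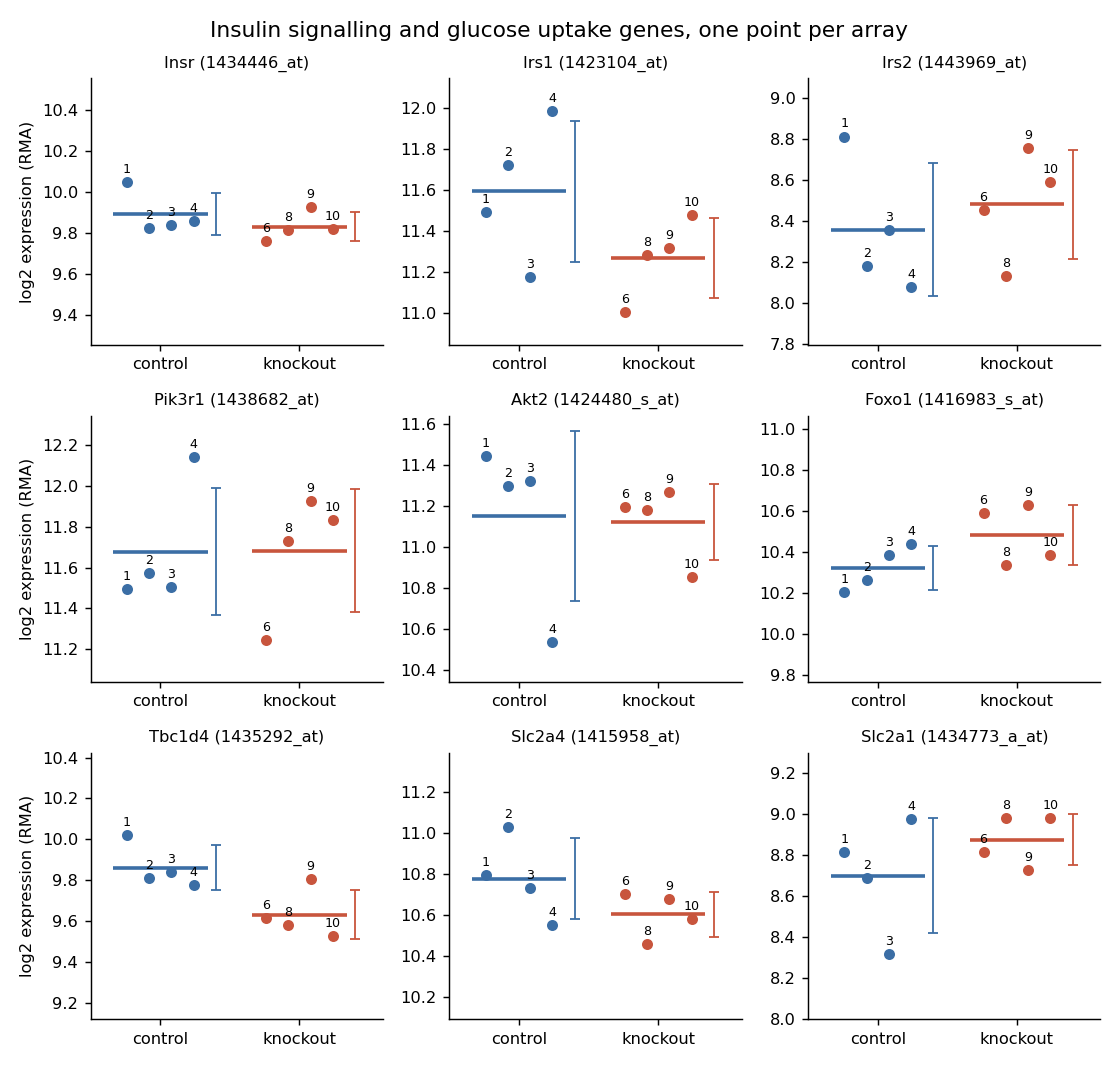
Log2 expression of the 9 genes on each array, controls in blue and knockouts in red, with the replicate number beside each point, the group mean as a horizontal line and the SD (n = 4) as the bar at the right; every panel spans the same height on the log2 axis. Control and knockout points overlap in every panel, and Tbc1d4 has 3 of 4 knockouts below all controls.

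The receptor transcript was the steadiest of the 9. Insr probe set 1434446_at read 10.05, 9.82, 9.84 and 9.86 in controls 1 to 4 and 9.76, 9.81, 9.93 and 9.82 in knockouts 6, 8, 9 and 10. Control 1 was the highest and the other arrays lay close together. The difference was -0.06 (95% interval -0.24 to 0.11, limma adjusted p = 0.999), and it was -0.0103 without control 1 and -0.0941 without knockout 9. Its SD over the 8 arrays, 0.09, lay at the 13.4th percentile of all genes. The other Insr probe sets, 1421380_at and 1450225_at, were dim, with values of 4.20 to 5.13 and 5.21 to 5.50.

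The adaptors Irs1 and Irs2, the docking proteins that the receptor phosphorylates, had point estimates on opposite sides of 0. Irs1 (1423104_at) read 11.49, 11.72, 11.18 and 11.99 in controls and 11.00, 11.28, 11.32 and 11.48 in knockouts. All 4 knockouts lay below the control mean of 11.59, and control 3 lay inside the knockout range. The difference of -0.33 (-0.73 to 0.08, limma adjusted p = 0.999), a ratio of 0.798, was the largest in size of the 9 and did not pass. It was -0.19 without control 4, the array with the highest Irs1, and -0.46 without control 3. Irs2 (1443969_at), the adaptor whose gene is also a known FOXO1 target, read 8.81, 8.18, 8.36 and 8.08 in controls and 8.45, 8.13, 8.76 and 8.59 in knockouts. Control 1 and knockout 9 were high, control 4 and knockout 8 low, and the ranges nearly coincided. The difference was 0.13 (-0.30 to 0.55, limma adjusted p = 0.999), 0.28 without control 1 and 0.03 without control 4. Control 1, the highest array for Irs2, also had the liver markers at 11.21; the part of these in the result was not tested beyond leaving that array out.

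Both adaptor genes have a CpG-rich promoter with 1 copy of the E-box CACGTG, and the sequences are shown because this motif sets the pair apart from the other members in the table. Both are the 250 bases before the RefSeq start on GRCm38.p6, 5′ to 3′ on the gene's strand, at chr1:82291440-82291689 (minus strand) for Irs1 and chr8:11008930-11009179 (minus strand) for Irs2, with the E-box in capitals.
Irs1: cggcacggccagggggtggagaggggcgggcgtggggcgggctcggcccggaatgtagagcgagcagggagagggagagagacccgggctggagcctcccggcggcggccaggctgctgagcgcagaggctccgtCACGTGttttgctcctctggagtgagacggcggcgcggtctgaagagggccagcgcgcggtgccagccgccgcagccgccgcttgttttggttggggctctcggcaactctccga
Irs2: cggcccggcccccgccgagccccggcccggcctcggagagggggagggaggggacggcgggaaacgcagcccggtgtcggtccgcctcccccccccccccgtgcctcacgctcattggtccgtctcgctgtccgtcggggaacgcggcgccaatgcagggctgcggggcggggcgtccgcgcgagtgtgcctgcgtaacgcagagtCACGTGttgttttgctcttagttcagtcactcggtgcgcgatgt
The E-box starts 115 bases before the start in Irs1 and 44 in Irs2, and in both it lies in the shared run GTCACGTGTT. This run was taken from these sequences by extending their match around the E-box. On either strand 23 of 32851 promoters in the table hold it, Irs1 and Irs2 among them by construction. Promoters were listed for 7 of the 9 genes, 11 in all. On both strands 5 motifs were searched: the E-box CACGTG, which reads the same on both and was found in 2 of the 11 against 6.02% of all promoters, the FOXO core GTAAACA (0 of 11 against 3.17%), the GC box GGGCGG (7 of 11 against 32.7%), the TATA box TATAAA (1 of 11 against 12.4%) and the CCAAT box (3 of 11 against 33.8%). In the sequences shown, 0 matches of the other motifs overlapped the E-box. The GC content was 72.4% in the Irs1 and 72.8% in the Irs2 promoter, against a median of 52.4%. A match is a description of the letters and not a binding site.

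Pik3r1, the p85 regulatory subunit of phosphoinositide 3-kinase, had the same mean in both groups. Probe set 1438682_at read 11.50, 11.57, 11.50 and 12.14 in controls and 11.25, 11.73, 11.93 and 11.83 in knockouts. Control 4 was the highest array and knockout 6 the lowest, so the spread lay within the groups. The difference was 0.00488 (-0.43 to 0.44, limma adjusted p = 0.999). The gene has 4 probe sets, whose differences ran from -0.10 to 0.03.

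Akt2, the AKT isoform that matters most for glucose uptake in fat, also had like means. Probe set 1424480_s_at read 11.44, 11.30, 11.32 and 10.54 in controls and 11.19, 11.18, 11.27 and 10.85 in knockouts. Control 4 stood far below the other controls. The difference was -0.03 (-0.48 to 0.43, limma adjusted p = 0.999), and it was -0.23 without control 4. The other Akt2 probe sets differed by 0.12 (1421324_a_at) and 0.05 (1455703_at).

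Foxo1, the factor that insulin holds in check through AKT, had its 4 probe sets on the higher side. Probe set 1416983_s_at read 10.21, 10.26, 10.39 and 10.44 in controls and 10.59, 10.34, 10.63 and 10.38 in knockouts. Knockouts 6 and 9 lay above all controls, and knockouts 8 and 10 inside the control range. The difference was 0.16 (-0.05 to 0.38, limma adjusted p = 0.999). On 1416981_at the values ran from 9.74 to 9.81 in controls and from 9.78 to 10.19 in knockouts, a difference of 0.19, and on 1416982_at from 9.69 to 9.89 and from 9.72 to 10.26, a difference of 0.14. Knockouts 6 and 9 were again the arrays above all controls on both. These probe sets measure one transcript pool and are not independent of each other. The 4th, 1456529_at, was dim, at 3.98 to 4.10, and differed by 0.03.

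Tbc1d4, the AKT substrate AS160 that holds GLUT4 vesicles inside the cell until it is phosphorylated, had the smallest unadjusted p of the 9. Probe set 1435292_at read 10.02, 9.81, 9.84 and 9.78 in controls and 9.62, 9.58, 9.80 and 9.53 in knockouts. Knockouts 6, 8 and 10 lay below every control, and knockout 9 lay just above control 4. The difference was -0.23 (-0.43 to -0.03), a ratio of 0.853, with an unadjusted limma p of 0.0291 and an adjusted p of 0.999, so it did not pass. The 2nd probe set, 1455903_at, read 7.92, 8.27, 8.08 and 7.59 in controls and 7.95, 7.92, 7.20 and 7.64 in knockouts. Its groups overlapped widely, and its difference was -0.29 (-0.73 to 0.16, limma adjusted p = 0.999). Over 20 alternative fits, 4 of which leave the difference as it is by construction, Tbc1d4 ran from -0.32 to -0.14 and passed in 0 (adjusted p from 0.300 to 1). Its unadjusted limma p was not under 0.05 in 5 of the 20: without control 1 (0.0779), without knockout 6 (0.0596), 8 (0.0704) or 10 (0.0800), and within the upper set of arrays described below (0.358). Control 1, the highest array, had the liver markers at 11.21, and without it the difference was -0.18.

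Slc2a4, the transporter GLUT4 that insulin brings to the surface of fat and muscle cells, had all 4 knockouts below the control mean. Probe set 1415958_at read 10.80, 11.03, 10.73 and 10.55 in controls and 10.70, 10.46, 10.68 and 10.58 in knockouts. Control 2 was the highest array, and control 4 lay inside the knockout range. The difference was -0.17 (-0.43 to 0.08, limma adjusted p = 0.999). It was -0.09 without control 2 and -0.25 without control 4. The 2nd probe set, 1415959_at, read 10.59, 11.12, 10.82 and 10.13 in controls and 10.78, 10.56, 10.23 and 10.84 in knockouts, a difference of -0.07 (-0.56 to 0.42). Skeletal muscle also expresses Slc2a4, and its 7 markers all had a usable probe set. Their mean level per array was low, at 5.52 to 5.62 in control and 5.67 to 5.69 in knockout. The array medians were 6.44 to 6.52. Of the 7, 6 were higher and 1 lower, where 53.3% of all genes were lower. None passed the test, where 0% of all genes did. Of single markers, 0 had fully separated groups, against 1.70% of all genes, while the ranges of their mean level did not overlap. The part of the muscle markers in the Slc2a4 result was not tested.

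Slc2a1, the transporter GLUT1 that supplies basal glucose uptake, had all 4 knockouts above the control mean. Probe set 1434773_a_at read 8.81, 8.69, 8.32 and 8.98 in controls and 8.81, 8.98, 8.72 and 8.98 in knockouts. Control 3 was the lowest array, and the other controls lay at or near the knockout range. The difference was 0.18 (-0.15 to 0.50, limma adjusted p = 0.999), and it was 0.05 without control 3 and 0.27 without control 4. The other probe sets of the gene, 1426599_a_at and 1426600_at, differed by 0.24 and 0.17, again with control 3 lowest, at 7.73 and 7.60. Endothelial cells, which are known to use GLUT1, had their 8 markers at a mean of 10.02 in control 3 and 9.33 to 9.98 in the other controls. The 10 macrophage markers were at 10.56 in control 3 and 9.91 to 10.28 in the other controls. Control 4, the control highest for Slc2a1, had the endothelial markers at 9.98, close to their level in control 3. The part of these markers in the result was not tested. Within each array, Slc2a1 minus Slc2a4 was -1.98, -2.34, -2.42 and -1.58 in controls and -1.89, -1.48, -1.95 and -1.60 in knockouts, a shift of 0.35 between group means. Control 4 lay among the knockouts, so the groups overlapped; the 2 genes were paired after their values were seen, and no test was made.

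**Figure D2:**
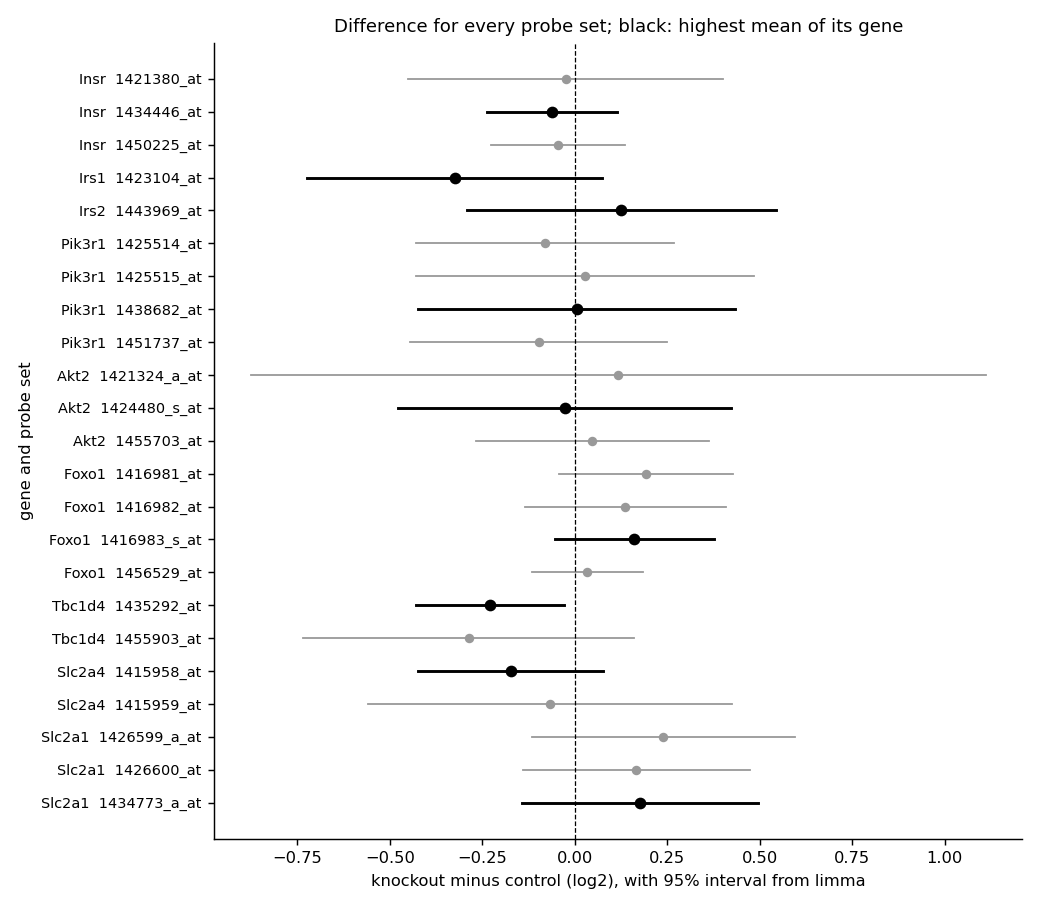
Knockout minus control (log2) for each of the 23 probe sets with its 95% interval from limma over all probe sets, black for the probe set with the highest mean of its gene and grey for the others. All intervals but that of Tbc1d4 1435292_at (-0.43 to -0.03) include 0, and Akt2 1421324_a_at has the widest.

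Over the 23 probe sets, 12 were higher and 11 lower in knockout. With limma over all 44105 probe sets, 0 of the 23 passed (0% called over all), 1 had an unadjusted p under 0.05 (2.52% over all), and 0 had separate groups (1.59% over all). Of the 7 genes with more than 1 probe set, 5 had one direction throughout: Insr, Tbc1d4 and Slc2a4 lower, Foxo1 and Slc2a1 higher. In Pik3r1 and Akt2 the probe sets differed in sign, with every value close to 0 against its interval.

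Probe sets of one gene did not always follow each other from array to array. Akt2 1421324_a_at read 10.39, 11.02, 10.79 and 9.03 in controls and 10.79, 10.81, 9.67 and 10.42 in knockouts, a range of 1.99 on the log2 scale, where 1424480_s_at of the same gene had a range of 0.91. Its difference from 1424480_s_at was -1.06 in control 1, -1.51 in control 4 and -1.60 in knockout 9, and between -0.53 and -0.28 in the other 5 arrays. These are the same 3 arrays that had the widest 3′ to 5′ difference of pyruvate carboxylase. For Slc2a4, 1415959_at minus 1415958_at was -0.20, -0.42 and -0.45 in those arrays and between 0.08 and 0.26 in the others. For Tbc1d4, 1455903_at minus 1435292_at was -2.10, -2.19 and -2.61, against -1.89 to -1.54. In these 3 genes the 3 arrays and the other 5 did not overlap. For Pik3r1, 1438682_at minus 1451737_at was 2.13, 2.75 and 2.52, against 1.66 to 2.26, so control 1 fell among the others. These pairs were chosen after their values were seen, and their positions on the transcripts were not used here.

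**Figure D3:**
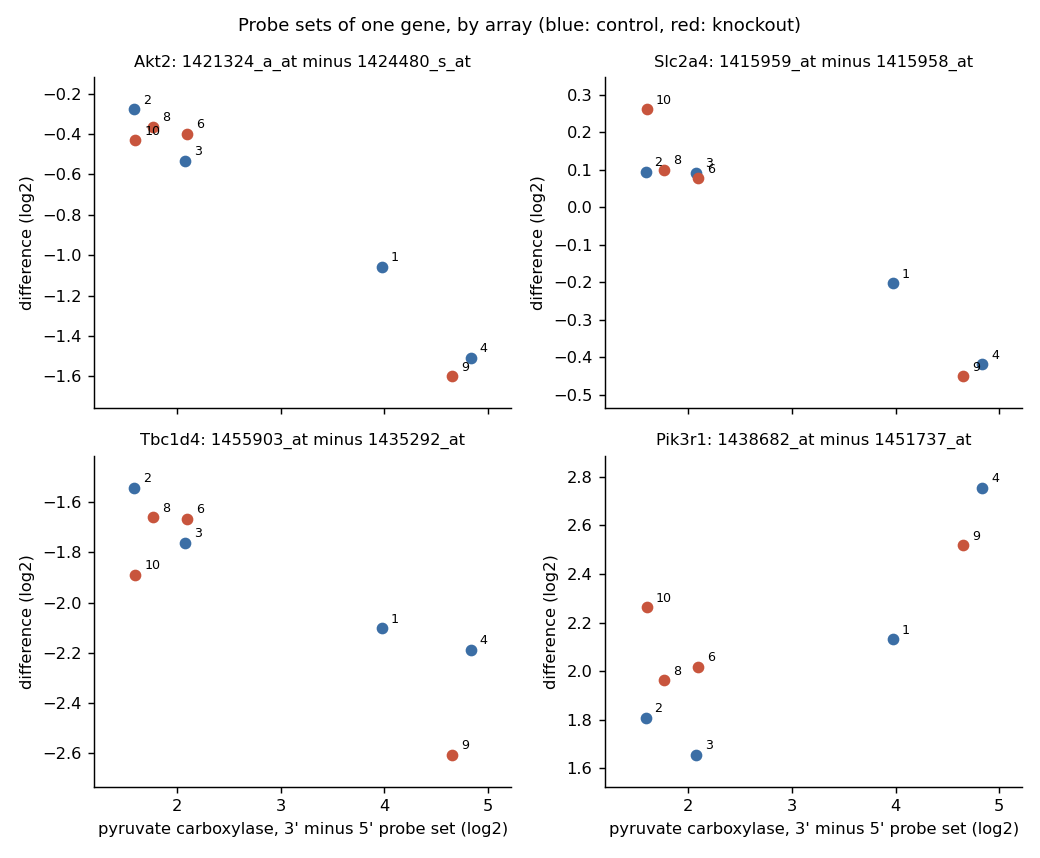
Difference between a pair of probe sets of one gene (log2, vertical axis) against the 3′ minus 5′ difference of the pyruvate carboxylase control probe sets (log2, horizontal axis), one point per array with its replicate number, blue for control and red for knockout. Controls 1 and 4 and knockout 9 lie at the right in each panel, with Akt2 at -1.60 to -1.06 there and -0.53 to -0.28 at the left.

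A fit with the RNA measure as a covariate gave the change in each probe set per unit of it. For Akt2 1421324_a_at this was -0.44 (95% interval -0.64 to -0.23, limma adjusted p = 0.0759), for Slc2a4 1415959_at -0.22 (-0.31 to -0.12, limma adjusted p = 0.0592) and for Tbc1d4 1455903_at -0.19 (-0.29 to -0.10, limma adjusted p = 0.0925). None of the 23 passed over all probe sets, where 1.07% did, and 5 had an unadjusted p under 0.05, where 11.6% of all probe sets did. With this covariate, added for single probe sets after seeing the data, the probe sets of Slc2a4 came closer in their difference between knockout and control and those of Tbc1d4 moved apart. Slc2a4 stood at -0.19 (-0.46 to 0.07) on 1415958_at and -0.20 (-0.45 to 0.05) on 1415959_at. Tbc1d4 stood at -0.20 (-0.40 to -0.01) and -0.40 (-0.65 to -0.15). The limma adjusted p was 0.975 on all 4 probe sets, so neither gene passed. Leaving out the 3 arrays, a choice made after seeing the data that keeps 2 controls and 3 knockouts, gave -0.30 for Slc2a4, -0.25 for Tbc1d4 and 0.42 for Slc2a1 (limma adjusted p = 0.443, 0.300 and 0.278), and 0 of the 9 passed, where 0.852% of all genes did.

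The arrays also fall into 2 sets by the lower quartile of their values, a lower set (controls 1 and 2, knockouts 6 and 8) and an upper set (controls 3 and 4, knockouts 9 and 10); the labels do not say what the sets are. Of the 9 genes, 5 had the same direction in both sets: Irs1 (-0.46 and -0.19), Tbc1d4 (-0.32 and -0.14) and Slc2a4 (-0.33 and -0.01) lower, Foxo1 (0.23 and 0.09) and Slc2a1 (0.15 and 0.21) higher. Irs2 stood at -0.20 in the lower set and 0.45 in the upper, Akt2 at -0.19 and 0.13, Insr at -0.15 and 0.02, and Pik3r1 at -0.05 and 0.06. In the lower set 7 of the 9 were lower in knockout, in the upper set 3. The difference between the sets was tested as an interaction in limma. None of the 9 passed (adjusted p rounded to 1 for each; 0% called over all genes), and none had an unadjusted p under 0.05, where 3.24% of genes did; the smallest was 0.0934, for Irs2.

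**Figure D4:**
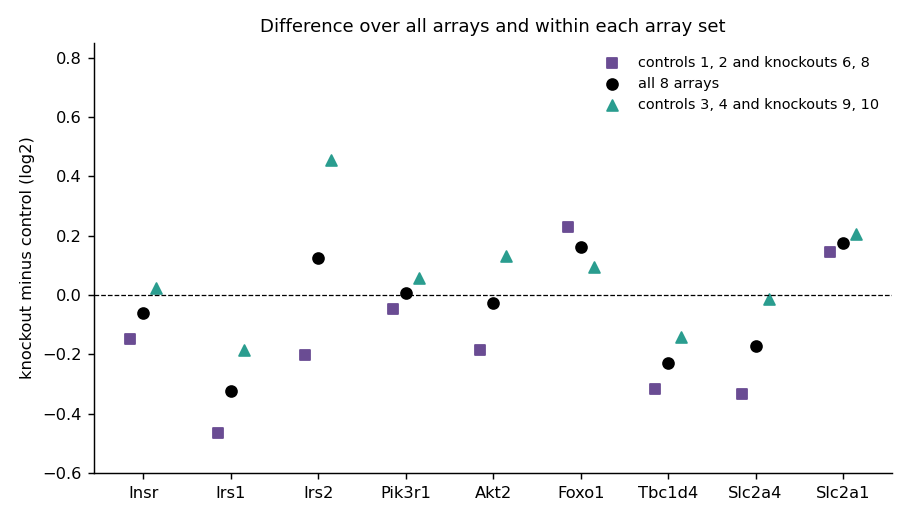
Knockout minus control (log2) for each gene over all 8 arrays (circles), within the lower set of arrays (squares), and within the upper set (triangles). Irs2 has the widest gap between the sets, -0.20 against 0.45, and Slc2a1 one of the narrowest, 0.15 against 0.21.

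The array with the highest or the lowest value differed from gene to gene. Control 1 was the highest array for 4 of them (Insr, Irs2, Akt2 and Tbc1d4) and the lowest for Foxo1. Control 4 was the highest for Irs1 and Pik3r1 and the lowest for Irs2 and Akt2. Knockout 6 was the lowest for Insr, Irs1 and Pik3r1 and was above the mean for Foxo1. Without it the differences were -0.04 for Insr, -0.24 for Irs1 and 0.15 for Pik3r1. The 7 mesothelial markers averaged 7.85 in knockout 6, against 8.79 to 9.34 in controls and 8.82 to 9.40 in the other knockouts. Their part in these values was not tested. After each gene's own mean was subtracted, the median over the 9 genes lay between -0.07 and 0.11 on every array. The range of a single gene over the 8 arrays ran from 0.29 (Insr) to 0.99 (Irs1). The median SD of the 9 over the 8 arrays was 0.22, against 0.15 over all genes. The median half-width of their 95% intervals was 0.32, against 0.25. The mean levels of the 9 lay between percentiles 61.9 and 96.3 of all genes, so these comparisons are not at like levels.

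The rest of the pathway was taken as 6 lists with 123 genes, of which 115 had a usable probe set. None of the 115 passed limma over all genes; 2 had an unadjusted p under 0.05, or 1.74% against 2.56% of all genes, and 55 were higher and 60 lower, with a median of -0.00296 against -0.01 over all genes. Among 19 receptor, adaptor and PI3K genes, 9 were higher and 10 lower (median -0.03), with Prkcz, an atypical protein kinase C, at 0.23 (-0.05 to 0.51). Irs4, a further IRS adaptor, was at -0.14 on a dim probe set with values of 4.56 to 4.93. Igf1r, the receptor for insulin-like growth factor, read 9.14, 8.24, 8.28 and 9.44 in controls and 9.07, 9.25, 8.91 and 9.07 in knockouts, a difference of 0.30 (-0.31 to 0.92). It was the 1 gene of the 115 that passed when controls 1 and 4 and knockout 9 were left out, at 0.87 (limma adjusted p = 0.0438), and was picked out for that; 0.852% of all genes passed in that fit, so 1 of 115 is near the background. The left-out controls were those at the knockout level. Among 18 AKT substrates and mTOR complex genes, 14 were lower (median -0.05), with Tsc2, which restrains mTOR complex 1, at -0.15 (-0.31 to 0.02) and the lipogenic enzyme Acly at -0.57 (-1.38 to 0.24).

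Negative regulators of the insulin signal held the 2 of the 115 genes with an unadjusted limma p under 0.05 (1.74% against 2.56% of all genes). Of 18 measured, 11 were higher and 7 lower in knockout (median 0.05), and none passed. Trib3, a pseudokinase reported to bind AKT, read 7.40, 7.52, 7.46 and 7.36 in controls and 7.88, 7.85, 7.69 and 8.21 in knockouts. Every knockout lay above every control, where 1.70% of all genes were fully separated in either direction. The difference was 0.47 (0.22 to 0.73, limma adjusted p = 0.999), in a gene named for its small unadjusted p. Ptprf, a receptor phosphatase known to act on the insulin receptor, read 9.99, 9.47, 9.12 and 10.03 in controls and 10.31, 10.34, 9.85 and 10.11 in knockouts. Its groups overlapped, with a difference of 0.50 (0.01 to 0.99, limma adjusted p = 0.999). The mean level of the 18 genes per array was 8.68 to 8.75 in controls and 8.80 to 8.86 in knockouts. Without Trib3 and Ptprf it was 8.73 to 8.78 and 8.78 to 8.83. That remainder still held Grb14, with the largest difference of the 18, 0.75 (-0.26 to 1.76, limma adjusted p = 0.999). Grb14 read 9.42, 10.00, 7.67 and 9.34 in controls and 9.60, 9.83, 9.76 and 10.24 in knockouts, so control 3 stood far below. The mean level without Grb14 was not computed. In each of the other pathway lists the control and knockout ranges of the mean level per array overlapped. For the FOXO targets they were 9.60 to 9.84 and 9.79 to 9.89, and for GLUT4 vesicle traffic 9.95 to 10.04 and 9.95 to 10.02. No test was made on these means.

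Genes of GLUT4 vesicle traffic lay close to 0. Of 24 measured, 10 were higher and 14 lower (median -0.01), with Rab13, a small GTPase, at -0.11 (-0.26 to 0.04) and Exoc7, an exocyst subunit, at 0.11 (-0.11 to 0.32). Of 16 other glucose transporters and genes of glucose phosphorylation, 8 were higher and 8 lower (median 0.00453). Slc2a6, on a dim probe set with values of 4.61 to 5.43, was at -0.29 (-0.63 to 0.05). Hk3, a hexokinase of blood cells, was at -0.14. Of 20 genes known as FOXO targets, 13 were higher and 7 lower (median 0.05), with the coactivator Ppargc1a at 0.60 (-0.22 to 1.42) and Ccn2, a matricellular protein, at 0.46 (-0.23 to 1.16). None of these passed.

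**Figure D5:**
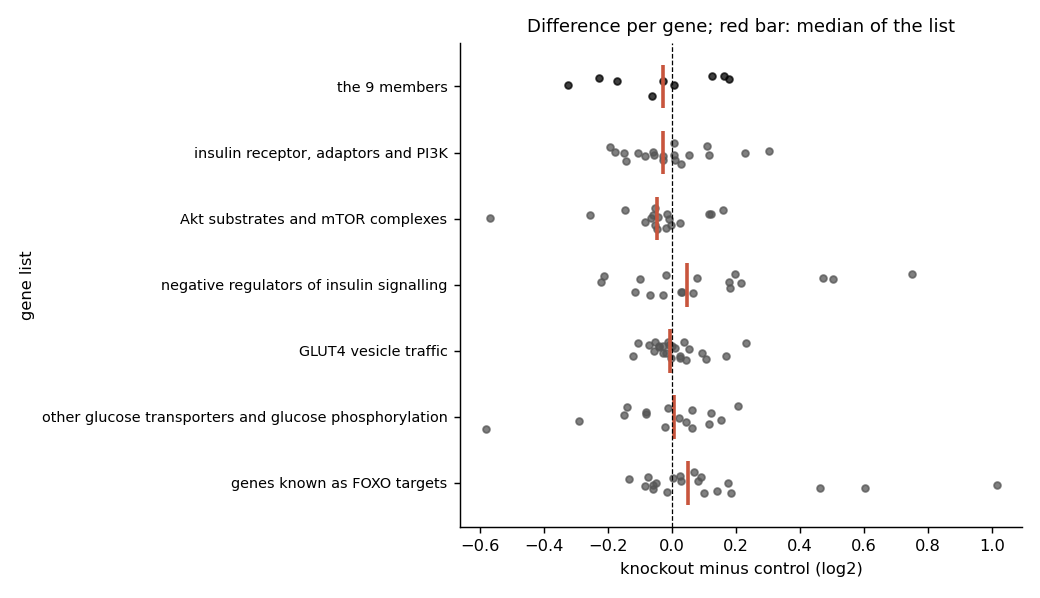
Knockout minus control (log2) for each gene of the 9 and of the 6 pathway lists, one point per gene, spread vertically at random within its row, with the list's median as a red bar. The medians of the 6 lists lie between -0.05 and 0.05, and no point passed the test.

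The genes whose values over the 8 arrays lay nearest to those of 3 members were found by the root mean square difference after subtracting each gene's mean, among 9088 genes of at least median level. For Slc2a4, whose own root mean square was 0.16, these were Selenoi (0.0393), Cycs (0.0590) and Anapc15 (0.0605). For Insr, at 0.0827, they were Ssr4 (0.0243), Ddx52 (0.0276) and Emg1 (0.0322). For Irs1, at 0.29, they were Fam126b, C730049O14Rik and Phf13, at 0.15 to 0.17, so no gene followed Irs1 as closely relative to its own spread. The 8 arrays share their processing, and likeness over 8 points is a description.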

How the data were processed

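RMA is named in the submitters' processing notes, without a version: background correction, quantile normalisation, then 1 summary per probe set. Values deposited by the authors are log2 and ran from 2.71 to 14.83 over 45037 probe sets, after 64 Affymetrix control probe sets were set aside. They hold no detection calls, and RMA can shrink differences of dim probe sets. In the 2016 platform annotation 34945 probe sets had 1 symbol, 9160 none and 932 several; the last were left out. Symbols matched a RefSeq table on assembly GRCm38.p6 for 34741. Promoter sequences are from RefSeq.

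The 4 knockout and 4 control arrays were compared in limma 3.58.1 (R 4.3.3; lmFit, then eBayes, without covariates) on 1 probe set per gene and on every probe set, adjusted over all of them; the number of arrays limits the precision. Intervals of 95% are unadjusted. The gene fit of knockout against control was tried on simulated data with independent noise per gene. The 9 genes and the lists were chosen with earlier results of these data known. Genes named were the 9, Pex5, and of each list those past the threshold or else the 2 with the smallest unadjusted p; for 3 members, also the nearest genes by pattern. Igf1r and Grb14 were added after their values were seen. Alternatives changed the variance model, filter, normalisation, probe set, array weights, array set, RNA quality and arrays kept. Figures were drawn with matplotlib 3.10.9.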

Additional observations from a re-analysis of the deposited data

Results flagged for a closer look

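Over 72 groups of 4 arrays (the 23 probe sets, Pex5 and the 12 named pathway genes, each in control and knockout), 5 had an array far from the other 3, where chance gives about 1 in 20. Insr 1434446_at was 10.05 in control 1, with the other controls between 9.82 and 9.86. Control 4 stood apart on 3 probe sets: Pik3r1 1438682_at at 12.14 (others 11.50 to 11.57), Pik3r1 1425515_at at 11.30 (others 10.63 to 10.74) and Akt2 1424480_s_at at 10.54 (others 11.30 to 11.44). Foxo1 1456529_at was 3.99 in knockout 6 with the others at 4.09 to 4.10, on a dim probe set.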

How the results depend on the processing

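No paired analysis was possible because the groups share no replicate numbers. The counts of 0 genes and 0 of the 9 members called by limma held under every alternative run except one: with controls 1 and 4 and knockout 9 left out, a choice made after seeing the data, 155 genes passed (152 higher, 3 lower), none of them among the 9. Over the fits that left out 1 array each, both counts stayed at 0. Irs1, Tbc1d4 and Slc2a4 were lower and Foxo1 and Slc2a1 higher in 20 of 20 alternatives, of which 4 (5 for Irs1, with its 1 probe set) leave the difference as it is by construction. Pik3r1 turned to -0.0225 with array medians subtracted (which moved the median of all genes to -0.0355), -0.0366 with its probe sets averaged and -0.0471 within the lower set of arrays, where Irs2 was -0.20. Akt2 turned to 0.0459 with its probe sets averaged and 0.13 within the upper set, where Insr was 0.0245. Leaving out 1 array, Pik3r1 ran from -0.0763 to 0.16 and Akt2 from -0.23 to 0.0706. The median over the 9 was -0.19 within the lower and 0.06 within the upper set. Akt2 1421324_a_at turned to -0.14 with the RNA quality covariate. The cause was not tested. Background correction could not be varied, since only summarised values were used here.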
